A study of Mus musculus with 12 samples.

Results

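Pmp22, the 3 Emp genes and Perp encode small tetraspan membrane proteins, and their transcripts were followed in mouse embryonic stem (ES) cells that were differentiated with retinoic acid. The members were Pmp22, Emp1, Emp2, Emp3 and Perp, taken as all probes that the array's annotation assigns to these symbols, which gave 6 probes for 5 genes out of 41174 probes and 21179 named genes. They were chosen by their differences in intensity between the retinoic acid and undifferentiated samples, so these differences are given as a description without a test. RNA came from ES cells after 3 days in retinoic acid (3 samples) and from undifferentiated ES cells (3 samples), each hybridised to 2 technical 1-colour Cy3 arrays. No ES cell line, genotype, culture medium or dose is given in the sources used here. The sample titles number BR apart from TR, read here as biological replicates and their technical arrays. Since nothing states that the replicates were grown as separate cultures, all errors and p-values speak of the variation among these 6 samples alone, which may be technical.

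PMP22 is a glycoprotein of compact peripheral nerve myelin, and altered dosage of its gene causes inherited neuropathies in humans. It was first isolated as the growth arrest gene Gas3 and is also made outside nerve. EMP1, EMP2 and EMP3 are its closest relatives and occur at the surface of epithelial and other cells, and PERP is a more distant tetraspan protein of desmosomes and a transcriptional target of p53 and p63. The whole group belongs to a wider superfamily with the claudins.

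The RefSeq table of promoter windows (build GRCm38.p6, from 250 bases before to 50 bases after an annotated start) held 9 windows for 4 of the members, 4 of them for Pmp22, 2 each for Emp1 and Emp3 and 1 for Emp2; Perp had no entry. The 250 bases before the start are shown for 2 Pmp22 starts and 1 start of each Emp gene, because these are the genes whose signals are compared further on. Capitals mark the retinoic acid receptor half-sites AGGTCA or AGTTCA or GGGTCA or GGTTCA, the TEAD motif GGAATG and the AP-1 motif TGACTCA, each searched on both strands, and no 2 marked matches overlapped.
Pmp22, chr11:63128732-63128981, plus strand: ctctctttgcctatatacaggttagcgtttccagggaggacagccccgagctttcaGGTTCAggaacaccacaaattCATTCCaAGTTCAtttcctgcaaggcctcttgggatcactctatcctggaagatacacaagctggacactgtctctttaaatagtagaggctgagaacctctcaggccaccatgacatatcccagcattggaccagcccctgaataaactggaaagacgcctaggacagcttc
Pmp22, chr11:63131207-63131456, plus strand: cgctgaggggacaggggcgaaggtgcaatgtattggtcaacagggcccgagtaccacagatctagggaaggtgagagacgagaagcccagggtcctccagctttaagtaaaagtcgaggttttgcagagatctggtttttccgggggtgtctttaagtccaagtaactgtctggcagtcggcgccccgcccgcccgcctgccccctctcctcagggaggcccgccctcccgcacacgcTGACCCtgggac
Emp2, chr16:10313969-10314218, minus strand: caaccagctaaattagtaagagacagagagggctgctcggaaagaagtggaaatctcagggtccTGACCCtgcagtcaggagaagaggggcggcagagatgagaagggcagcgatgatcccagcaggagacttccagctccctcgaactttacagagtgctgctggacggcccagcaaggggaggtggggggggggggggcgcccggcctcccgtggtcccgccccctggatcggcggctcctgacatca
Emp3, chr7:45921427-45921676, minus strand: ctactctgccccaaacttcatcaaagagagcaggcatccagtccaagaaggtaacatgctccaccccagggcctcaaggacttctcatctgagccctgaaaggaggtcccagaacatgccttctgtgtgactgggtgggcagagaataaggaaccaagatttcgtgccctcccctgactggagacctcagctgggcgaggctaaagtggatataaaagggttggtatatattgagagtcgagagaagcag
Emp1, chr6:135362681-135362930, plus strand: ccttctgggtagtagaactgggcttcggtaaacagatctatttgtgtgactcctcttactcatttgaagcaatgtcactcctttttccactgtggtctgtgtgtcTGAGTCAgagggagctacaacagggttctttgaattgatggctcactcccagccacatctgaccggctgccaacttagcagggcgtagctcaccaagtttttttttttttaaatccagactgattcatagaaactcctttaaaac
In the most upstream Pmp22 window, the half-sites GGTTCA and AGTTCA began 194 and 166 bases before the start, and a TEAD motif on the opposite strand lay between them, with its leftmost base 173 bases before the start. A half-site also stood in the second Pmp22 window and in the Emp2 window, and the Emp1 window shown held an AP-1 motif. Of the windows not shown, the other Emp1 window held the half-site GGGTCA beginning 7 bases before the start, and the most downstream Pmp22 window held one 28 bases after it. The remaining Pmp22 window, also not shown, and both Emp3 windows held none of these motifs. Of all 32851 windows in the table, 43.7% held a half-site, 14.7% a TEAD motif and 5.2% an AP-1 motif. No member window held half-sites on one strand spaced by 2 or 5 bases, an arrangement found in 0.365% of all windows. The Pmp22 windows also differed in base composition, with a GC content of 50.7% and 3 CpG sites over the 300 bases of the most upstream window and 72.3% and 30 CpG sites in the most downstream one, against a median of 52.7% and 7 over all windows. A match is a description of the letters and not a measured binding site.

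Pmp22 showed by far the largest difference of the 5 genes. On probe A_51_P258529 its quantile-normalized intensity, the brightness of the spot after the arrays were given the same distribution, averaged 17362, 24541 and 20405 in retinoic acid replicates 1, 2 and 3, against 121, 321 and 106 in undifferentiated replicates 1, 2 and 3. All 3 retinoic acid samples lay far above all 3 undifferentiated samples, and undifferentiated replicate 2 stood above the other two of its group. On the log2 scale used for all fits, log2(intensity + 50), the retinoic acid samples had 14.33 ± 0.25 and the undifferentiated samples 7.75 ± 0.68 (SD, n = 3 each), a difference of 6.58 ± 0.33 (SE). This corresponds to 95.8-fold with the added 50 and 128-fold without it, since the added value understates changes from dim levels. The probe was above background, the 95th percentile of 27 negative control spots, on all 6 arrays of either group, and its brightest scanner value, 32878.5, was below the brightest probes of the arrays (42952 to 49949). The difference ranked 4 among the 15326 genes tested, counted from the largest positive difference. Leaving out undifferentiated replicate 2 gave 6.98, and leaving out each of the other samples gave 6.35 to 6.70.

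A second probe assigned to Pmp22, A_52_P1067763, did not follow the first. Its normalized intensities were 15.4, 15.4 and 10.1 after retinoic acid and 10.5, 10.5 and 10.8 in undifferentiated cells, and it exceeded background on 0 of 6 retinoic acid arrays and 1 of 6 undifferentiated arrays. No fold is given for it. The file ties this probe to a cDNA clone rather than to the reference transcript, and the part of the transcript it reads was not analysed here. Averaging both probes on the log2 scale gave 3.33 in place of 6.58.

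**Figure D1:**
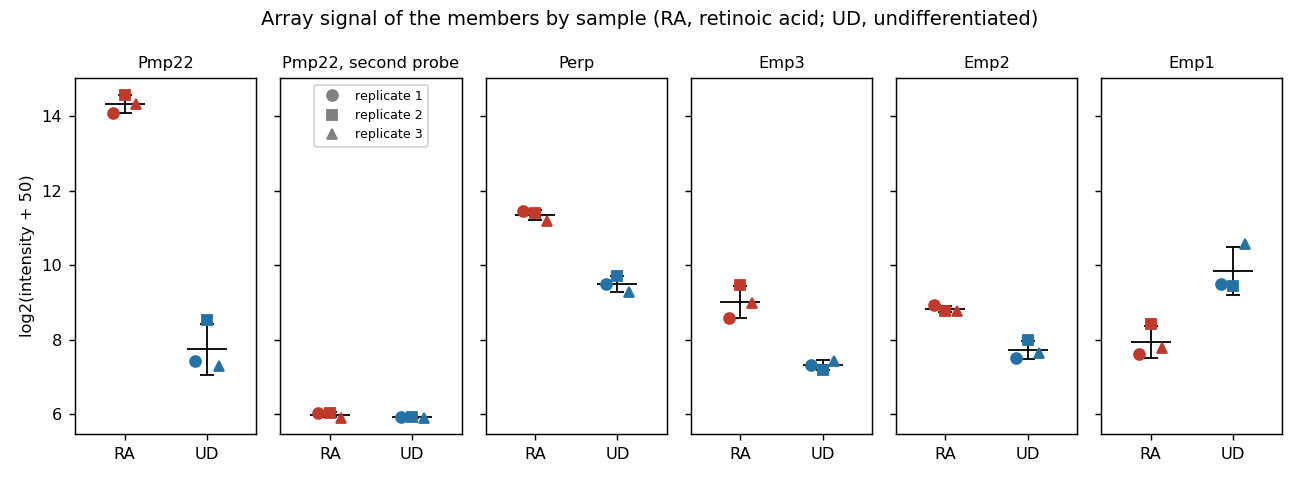
Log2(intensity + 50) of each member probe in the 3 retinoic acid samples (RA, red) and the 3 undifferentiated samples (UD, blue), technical arrays averaged; symbols mark replicates, bars the mean ± SD. The RA and UD samples do not overlap on 5 probes, with RA above UD for Pmp22, Perp, Emp3 and Emp2 and below it for Emp1, while the second Pmp22 probe stays near 6 in both groups; levels of different probes are not comparable.

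Perp, the desmosomal member, was higher after retinoic acid. Its probe A_51_P317941 had 11.45, 11.40 and 11.20 in log2 intensity in retinoic acid replicates 1 to 3, against 9.51, 9.72 and 9.28 in undifferentiated replicates 1 to 3. The groups were separated by 1.48, and the spread within each was small. The difference was 1.85 ± 0.17 (SE), with 11.35 ± 0.13 in retinoic acid samples and 9.50 ± 0.22 in undifferentiated samples (SD, n = 3 each), or 3.79-fold without the added 50. Perp was at rank 521 among the positive differences.

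The 3 Emp genes differed in direction. Emp3, a relative of Pmp22 found in many tissues, had 8.59, 9.47 and 8.98 in retinoic acid replicates 1 to 3, against 7.33, 7.18 and 7.44 in undifferentiated replicates 1 to 3. Its groups did not overlap, and the retinoic acid samples varied more (9.01 ± 0.44) than the undifferentiated samples (7.32 ± 0.13; SD, n = 3 each). The difference was 1.70 ± 0.23 (SE), or 4.27-fold without the added 50. Its range was 1.47 without retinoic acid replicate 2 to 1.91 without retinoic acid replicate 1.

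Emp2, which in human and mouse cells is known to bind integrins and to affect their display at the surface, had the smallest difference of the members. Its normalized intensity averaged 436, 388 and 386 in retinoic acid replicates 1 to 3, against 133, 208 and 151 in undifferentiated replicates 1 to 3. The retinoic acid samples lay close together and above every undifferentiated sample. The log2 difference was 1.10 ± 0.17 (SE), or 2.52-fold without the added 50, with 8.82 ± 0.09 in retinoic acid samples and 7.72 ± 0.25 in undifferentiated samples (SD, n = 3 each). The 2 technical arrays of undifferentiated replicate 2 differed by 0.37 for Emp2, the widest gap between technical arrays among the brightest probes of the 5 genes. That sample includes the array whose header names the other technical array; without that array, an alternative added after the data were seen, the difference was 1.04.

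Emp1, a relative known from epithelial and squamous tissues, went against the others. Its log2 intensity was 7.63, 8.42 and 7.78 in retinoic acid replicates 1 to 3, against 9.50, 9.44 and 10.58 in undifferentiated replicates 1 to 3. Every retinoic acid sample was below every undifferentiated sample, with undifferentiated replicate 3 well above the other two. The difference was -1.90 ± 0.34 (SE), or 4.44-fold lower without the added 50, with 7.94 ± 0.42 in retinoic acid samples and 9.84 ± 0.64 in undifferentiated samples (SD, n = 3 each). Without undifferentiated replicate 3 it was -1.53, and without retinoic acid replicate 2 it was -2.14. Emp1 ranked 257 among the negative differences.

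Within the groups the members did not all vary together, and those with a like order differed between the 2 groups. After retinoic acid, Pmp22, Emp3 and Emp1 were highest in replicate 2 and lowest in replicate 1, whereas Perp and Emp2 were highest in replicate 1; Perp was lowest in replicate 3, and Emp2 was nearly equal in replicates 2 and 3. In undifferentiated cells Pmp22, Emp2 and Perp were highest in replicate 2, and Emp3 and Emp1 in replicate 3. The median gap between technical arrays of a sample was between 0.04 and 0.09 for the brightest probes of the 5 genes, well under the differences between groups, and 0.16 for the dim second Pmp22 probe. Some steps in these orders were small beside the technical gaps. For Emp3 the undifferentiated replicates 1 to 3 had 7.33, 7.18 and 7.44, with technical gaps of 0.10, 0.19 and 0.12. With 3 samples a group these orders are a description of these libraries.

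Read over all genes, 4 of the 5 members were at least 2-fold higher after retinoic acid, where 10.5% of the tested genes were, and 1 was at least 2-fold lower, where 6.69% were. The groups did not overlap for 5 of 5 members and for 46.6% of all tested genes. The median difference of the members was 1.70, against 0.0035 over all tested genes. All 5 passed the filter on dim genes, with every array of both groups above background. These counts come from the comparison that served to choose the members and are given as a description.

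**Figure D2:**
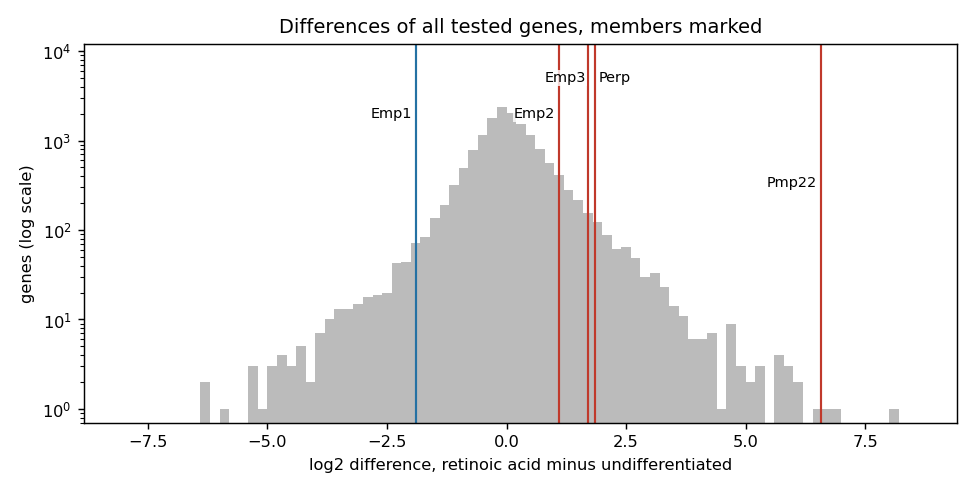
Histogram of the log2 difference, retinoic acid minus undifferentiated, of the 15326 tested genes (log count axis) with vertical lines at the 5 members. Pmp22 (6.58) lies in the far right tail, Perp (1.85), Emp3 (1.70) and Emp2 (1.10) in the right flank and Emp1 (-1.90) in the left flank.

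The genes whose 6 sample values, centred on their own mean, lay nearest to those of each member were sought among 13765 tested genes with regular symbols, by root-mean-square distance in log2 units. Among the genes nearest to Pmp22 were Tshz1, which encodes a transcription factor (distance 0.37, difference 6.14), and Gas1 (0.51, 5.87). Nearest to Perp were Lmod1 (0.06), Cplx2 (0.07) and Chst7 (0.08), and nearest to Emp2 were Col8a1 (0.05; above background on 3 of 6 undifferentiated arrays), Cnnm4 (0.06) and Phf14 (0.07). Nearest to Emp3 were Cxcl11 (0.12), which was above background on 0 of 6 undifferentiated arrays, Tnfaip8 (0.14) and Edn1 (0.17). Emp1 lay nearest to Ddx43 (0.16), Cd38 (0.17) and Serpinb1a (0.17), with differences of -1.86, -2.04 and -1.89; Cd38 and Serpinb1a were above background on 3 and 2 of 6 retinoic acid arrays. With 6 samples in 2 groups, such likeness mostly reflects a like difference between the groups.

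Few of the wider superfamily relatives were called as changed with retinoic acid. Among the clarins, the Lhfp proteins, the calcium channel gamma subunits and others, claudins left out, 24 of 26 were on the array and 13 were bright enough to test. In limma's fit over all genes with Benjamini-Hochberg adjustment, 32.3% of the tested genes were called at an adjusted p under 0.05 (18.7% higher, 13.6% lower). Of the 13 relatives 1 was called higher, 0 lower and 12 were not called, which is 7.69%, with a median difference of 0.05. The called gene was Lhfpl2, at 7.70 ± 0.11 in retinoic acid samples and 6.28 ± 0.51 in undifferentiated samples (SD, n = 3 each; difference 1.43 ± 0.26 SE; limma, adjusted p = 0.00423). Its 3 retinoic acid samples lay above the 3 undifferentiated ones, of whose 6 arrays 3 were above background, but the call was lost with technical array 2 alone (adjusted p = 0.075). Tmem47, the closest relative of Perp on the list, differed by 0.05 ± 0.23 (SE) and was not called. Lhfpl4 (0.64) was not called, but was called higher without undifferentiated replicate 2 (0.92, limma, adjusted p = 0.0061).

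**Figure D3:**
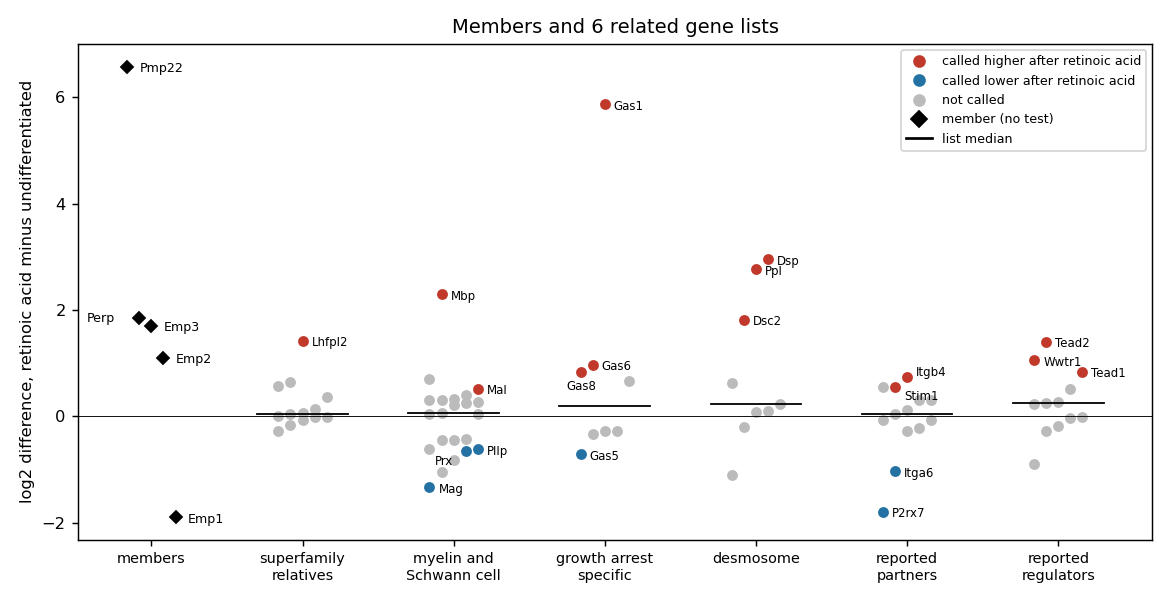
Log2 difference, retinoic acid minus undifferentiated, of the 5 members (diamonds, not tested) and of the tested genes of 6 related lists (dots), red where called higher, blue where called lower and grey where not called at an adjusted p under 0.05; short lines are list medians. The list medians lie between 0.04 and 0.24, and the called genes are named.

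As over the whole array, most tested genes of the myelin programme in which Pmp22 is best known were not called. Of 31 peripheral myelin and Schwann cell genes, 22 were tested, 2 were called higher, 3 lower and 17 were not called. The share called was 22.7%, against 32.3% of all tested genes, and the median was 0.06. Egr2, the transcription factor that drives myelin genes in Schwann cells, was above background on 2 of 6 arrays of either group and was not tested. Sox10, the neural crest and Schwann cell factor, was at 7.97 ± 0.27 in retinoic acid samples and 7.70 ± 0.64 in undifferentiated samples (SD, n = 3 each; limma, adjusted p = 0.567); leaving out undifferentiated replicate 2 gave a difference of 0.63 and a call (adjusted p = 0.0486).

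Mbp, myelin basic protein, rose on its brightest probe to 9.59, 9.68 and 9.43 in retinoic acid samples, against 6.97, 7.71 and 7.12 in undifferentiated samples (difference 2.30 ± 0.22 SE; limma, adjusted p = 0.0002). Its other 2 probes differed by 0.03 and -0.09. The probe at 0.03 was above background on 6 of 6 arrays of either group. The probe at -0.09 was above it on 1 of 6 retinoic acid and 2 of 6 undifferentiated arrays. Mag, a myelin-associated adhesion protein, fell (-1.33 ± 0.26, SE; limma, adjusted p = 0.00624), while its second probe differed by 0.07. The groups did not overlap on the brightest probe of either gene. Mal (0.52), Prx (-0.65) and Pllp (-0.62) were called with adjusted p of 0.0238, 0.0477 and 0.0317 in limma, but these calls were not stable, and Pllp exceeded background on 1 of 6 retinoic acid arrays and Mal on 2 of 6 undifferentiated arrays. Mal was lost without undifferentiated replicate 1 or any 1 retinoic acid replicate (adjusted p 0.0572 to 0.0934). Prx was lost on leaving out undifferentiated replicate 1, undifferentiated replicate 3 or any 1 retinoic acid replicate (0.0718 to 0.137). Pllp was lost on leaving out undifferentiated replicate 1, undifferentiated replicate 2 or any 1 retinoic acid replicate (0.0551 to 0.0918). The other Pllp probes differed by 0.53 and -0.02, the former above background on 1 of 6 retinoic acid and 0 of 6 undifferentiated arrays. The mean of the Pllp probes gave -0.04 (limma, adjusted p = 0.87).

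The growth arrest specific genes, which share the name under which Pmp22 was isolated (Gas3), split. The 8 tested included Gas2l1 and Gas2l3, named for likeness to Gas2, and neither was called. Of the 8, 3 were called higher, 1 lower and 4 were not called. The share called was 50%, against 32.3% of all tested genes, and the median was 0.20. Gas1, a membrane-anchored co-receptor of hedgehog proteins, rose to 13.17, 12.99 and 13.13 in retinoic acid samples, against 7.33, 7.41 and 6.93 in undifferentiated samples (5.87 ± 0.18, SE; limma, adjusted p = 1.83e-06). Gas5, a small nucleolar RNA host gene, fell by 0.72 ± 0.14 (SE; limma, adjusted p = 0.00726), with -1.44 on a second probe. Gas6 (0.97) and Gas8 (0.84) were called higher with adjusted p of 0.0219 and 0.0192 in limma. Gas6 lost its call when undifferentiated replicate 1, retinoic acid replicate 1 or retinoic acid replicate 3 was left out (0.0754 to 0.0837). For Gas8 this held for undifferentiated replicates 1 and 3 and retinoic acid replicate 1 (0.0503 to 0.072).

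Of the desmosome genes, the structures in which PERP resides, 9 of 14 were tested, and 3 were called higher, 0 lower and 6 were not called (33.3%, near the 32.3% of all genes; median 0.23). Dsp, the desmoplakin that links desmosomes to keratin filaments, rose by 2.96 ± 0.17 (SE; limma, adjusted p = 2.31e-05), to 12.45 ± 0.10 in retinoic acid samples, against 9.50 ± 0.23 in undifferentiated samples (SD, n = 3 each). A second of its 4 probes differed by 2.83, the other two by 0.33 and 0.09. Periplakin (Ppl) rose by 2.76 ± 0.25 (SE; limma, adjusted p = 0.000166; -0.01 on a second probe) and the desmosomal cadherin Dsc2 by 1.82 ± 0.14 (SE; limma, adjusted p = 7.66e-05; 1.39 and 1.55 on other probes; above background on 3 of 6 undifferentiated arrays). Jup, plakoglobin, was at 7.29 and 8.39 in retinoic acid and undifferentiated samples and was not called (limma, adjusted p = 0.0958), but was called lower without undifferentiated replicate 2 (-1.56; adjusted p = 0.0175). The groups of Dsp, Ppl and Dsc2 did not overlap.

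Of 13 reported partners of PMP22 and the EMP proteins, all tested, 2 were called higher, 2 lower and 9 were not called. The share called was 30.8%, near the 32.3% of all tested genes, and the median was 0.04. P2rx7, an ATP-gated channel reported to bind EMP proteins, fell by 1.79 ± 0.30 (SE; limma, adjusted p = 0.00289), to 7.03 ± 0.10 in retinoic acid samples, against 8.83 ± 0.63 in undifferentiated samples (SD, n = 3 each; second probe -0.20). Itga6 and Itgb4 are the chains of a laminin receptor that PMP22 is reported to join. Itga6 fell by 1.04 ± 0.16 (SE; limma, adjusted p = 0.00226), and Itgb4 was higher by 0.73 ± 0.19 (SE; limma, adjusted p = 0.0222). The Itgb4 call was lost when replicate 1 or 3 of either group was left out (adjusted p 0.0537 to 0.0894). Stim1, the calcium sensor, was called at 0.55 (limma, adjusted p = 0.0467), a call lost without any 1 sample other than undifferentiated replicate 2 (0.0899 to 0.157). The EMP2 partners Itgb3 (-0.27), Itgb1 (-0.07) and Cav1 (0.04) were not called. For Itgb1 the direction depended on the probe. A second probe, above background on 6 of 6 arrays of either group, differed by 0.52, and the mean of its probes gave 0.17.

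Among 14 reported transcriptional regulators, 12 were tested, 3 were called higher, 0 lower and 9 were not called. The share called was 25%, against 32.3% of all tested genes, and the median was 0.24. Tead2, a DNA-binding partner of the Hippo pathway coactivators, rose by 1.40 ± 0.15 (SE; limma, adjusted p = 0.000392; 1.47 on a second probe), and the coactivator Wwtr1 (TAZ) by 1.06 ± 0.15 (SE; limma, adjusted p = 0.00136; 1.13 on a second probe). The retinoic acid samples of both genes lay above every undifferentiated sample. Tead1, a regulator of Pmp22 in rodent Schwann cells, was called higher at 0.84 (limma, adjusted p = 0.0255), with 0.08 and 0.01 on its other probes, and the call was lost without any 1 retinoic acid replicate (adjusted p 0.0609 to 0.0814) and with 4 other settings, the mean of its probes among them. Its coactivator Yap1 differed by -0.01 ± 0.43 (SE). Of the known activators of Perp, Trp53 differed by -0.04 ± 0.22 (SE), and Trp63 was above background on 2 of 6 retinoic acid and 3 of 6 undifferentiated arrays and was not tested. None of the 3 retinoic acid receptor genes, Rara (0.23), Rarb (-0.27) and Rarg (-0.90), was called. For Rarb the direction depended on the probe: its second probe, above background on 6 of 6 retinoic acid and 2 of 6 undifferentiated arrays, differed by 0.94, the mean of its probes gave 0.33, and scaling to the 75th percentile gave a call (-0.63; limma, adjusted p = 0.0473).

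Markers of the cell types were read beside the members. All 8 ES cell markers fell (median -4.41), with summed normalized intensities of 4736 to 5854 on retinoic acid arrays and 93501 to 126719 on undifferentiated arrays. Of 6 simple epithelium markers 4 rose, the keratins Krt8, Krt18, Krt19 and Krt7, while Epcam and Cdh1 were not called, and their sums were 61844 to 69760 and 10117 to 11094 on retinoic acid and undifferentiated arrays. Of 10 fibroblast markers 8 were tested, 4 rose and Thy1 fell, with sums of 2425 to 3551 on retinoic acid arrays and 1324 to 1732 on undifferentiated arrays, and Postn was above background on 0 of 6 retinoic acid arrays. Of 8 Schwann cell and neural crest markers 6 were tested and 1, Foxd3, fell, with sums of 1893 to 2725 and 2786 to 4548 on retinoic acid and undifferentiated arrays; S100b was above background on 0 of 6 retinoic acid arrays. Of 6 stratified epithelium markers 0 of 4 tested were called, with sums of 478 to 789 and 529 to 1175, and Ivl was above background on 0 of 6 retinoic acid arrays. The part of these cell types in the members' differences was not tested, and in bulk RNA a change in the number of cells of a type cannot be told apart from a change in RNA per cell.

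Array medians of net intensity ran from 37.4 to 96.6, and background limits lay between 8.50 and 51.6. The highest medians were those of replicate 3, at 67.0 and 67.3 on undifferentiated and 96.6 and 93.5 on retinoic acid arrays. Undifferentiated replicate 2 had the lowest limits (8.50 and 9.24) and the most probes above them (80.0% and 85.0%). Counts of arrays above background therefore also depend on the limit of each array. Between 53.8% and 85.0% of probes exceeded the limit of their array; the number of arrays limits the precision.

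**Figure D4:**
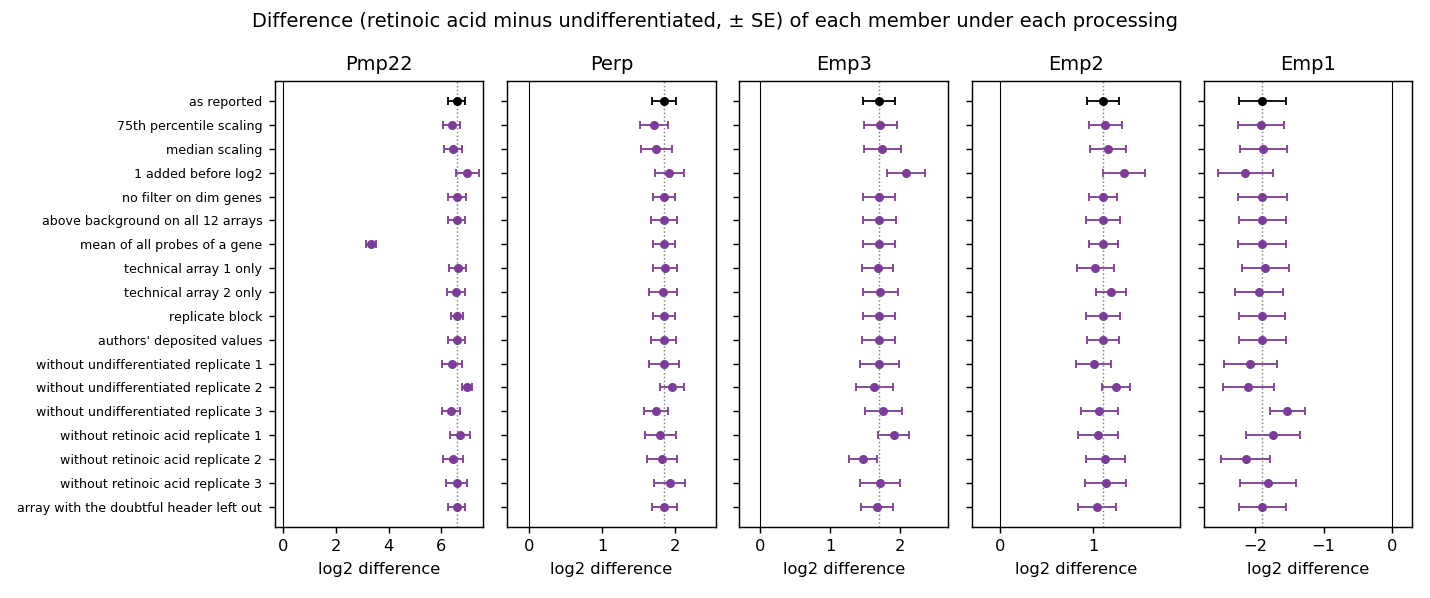
Log2 difference, retinoic acid minus undifferentiated, ± SE of each member as reported (black) and under 17 other processings (purple); the dotted line marks the reported value and the solid line 0. All 17 keep the sign for all 5 members, and the value that moves most is that of Pmp22 (3.33) with its 2 probes averaged.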

How the data were processed

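One amplification round preceded Cy3 labelling of the RNA, per the labels' protocols. The deposited scanner tables hold the net mean intensity of each spot, per the file headers, so the authors' software had already taken off local background. The authors also deposited processed intensities for 41173 probes, with R 2.15.0 and limma named in the submitters' processing notes; their correlation with quantile-normalized log2 values here was 0.999997 to 0.999998, and they were tried as an alternative. The header of technical array 2 of undifferentiated replicate 2 names technical array 1.

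Gene names came from accessions, symbols and synonyms in the RefSeq gene table (GRCm38.p6). A further 1281 probes kept the array's own name, and 1 probe was named Nanog from its description. The 41174 probes were quantile-normalized over 12 arrays, 50 was added, log2 was taken and technical arrays were averaged. The brightest probe stood for a gene. A gene was tested when at least 4 of 6 arrays of either group exceeded the 95th percentile of 27 negative control spots. Groups were compared with limma 3.58.1 in R 4.3.3 (lmFit, eBayes, two-sided, no covariates, Benjamini-Hochberg adjustment), checked on simulated data. Figures used matplotlib 3.10.9.

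The members and lists were chosen with earlier results of these data known; the lists were written from general knowledge. Named were up to 3 called genes of each list in each direction, 10 genes whatever their result and the 3 genes nearest to each member; others were named after their values were seen, and some results under this rule are not reported here. Probe sequences and protein sequences were not used here.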

Additional observations from a re-analysis of the deposited data

How the results depend on the processing

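All 5 members kept the sign of their difference in all 17 alternatives. Pmp22 was 3.33 with the mean of its probes, and with 1 added before log2 Emp2 was 1.33 and Emp3 2.08; the other settings moved a member by less than its SD between replicates. Leaving out 1 sample at a time gave 6.35 to 6.98 for Pmp22, -2.14 to -1.53 for Emp1, 1.001 to 1.24 for Emp2, 1.47 to 1.91 for Emp3 and 1.74 to 1.95 for Perp. With 1 sample left out, genes called over the whole array numbered 3235 (without retinoic acid replicate 3) to 5256 (without undifferentiated replicate 2), against 4955 as reported. In these leave-one-out fits, 1228 to 2108 genes were lower and 2007 to 3148 higher. Over the 6 lists 20 genes were called as reported; leaving out 1 sample gave 12 to 23 called list genes, with 8 to 17 higher and 4 to 7 lower. The fewest came without retinoic acid replicate 1 (12) or 3 (13), and the cause was not tested. Higher genes numbered 2872 and lower genes 2083 as reported, 2446 and 2644 with 75th percentile scaling, and 2383 and 2238 with median scaling, so that 58.0%, 48.1% and 51.6% of calls were higher. Samples with the same replicate number did not deviate together in every pair (correlations -0.06, 0.22 and 0.07 over 15326 genes), so the number was not used to pair them. These correlations cannot show that nothing else was shared, and the arrays of replicate 3 had the highest median intensities in both groups. With the replicate block 4889 genes were called, and the SE of Pmp22 was 0.22 in place of 0.33. Not every sample correlated best with its own number. Jup, not called as reported, was called lower with the block (-1.11; limma, adjusted p = 0.0186). Leaving out the array with the doubtful header was chosen after seeing the data and gave 4961 calls. Fold changes of dim genes are understated by the added 50.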
